A study of Mus musculus with 5 samples.

Results

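The 7 genes described here are Atxn1, Atxn2, Atxn3, Atxn7, Cacna1a, Tbp and Atn1, the mouse counterparts of human genes in which an expanded run of glutamine codons causes a disease other than Huntington's disease. They were taken by name from the 22380 protein-coding genes of the GENCODE vM1 annotation. Every H3K9ac peak whose centre lay within 10 kb of any annotated transcript start of these genes was counted as theirs. This gave 29 of 34286 peaks in DOP-treated cells and 28 of 33355 peaks in untreated cells.

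The cells were STHdh Q111 cells, a mouse striatal progenitor line on a C57BL/6 background that is homozygous for mutant huntingtin (STHdhQ111/Q111). All groups carried this genotype and were kept without serum for 24 h. The treated group (2 samples) received 4 mM DOP (4-deoxypyridoxine hydrochloride), an inhibitor of the sphingosine-1-phosphate lyase (SPL) enzyme, and the untreated group, named SST in the labels (2 samples), received DPBS as vehicle. Chromatin was immunoprecipitated with an antibody against histone H3 acetylated at lysine 9 (H3K9ac), and 1 IgG sample was the negative control. All samples came from 1 cell line, and the labels do not state whether the samples of a group were separate cultures.

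The authors deposited 1 peak list per condition, so neither list has replicates, no test between the conditions was possible, and every difference below is a difference between 2 lists. A peak here is an interval of 200 bp around an event placed at a single position of the mm9 genome by the GPS/GEM peak caller. The score of a peak is the authors' value, whose definition and depth were not given in the sources used here. Its range was 23 to 112288 with DOP and 21 to 94657.6 without. A score percentile is the rank of a peak within its own list, from 0 for the lowest score to 100 for the highest. A peak was called shared when its interval overlapped one of the other list by at least 1 bp.

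Marker genes of several cell types were looked up in the lists. For scale, 57.7% of all protein-coding genes had a peak within 10 kb of a start with DOP and 56.9% without. The marker counts therefore do not settle the identity of the cells. Of 4 neural progenitor markers, Vim and Sox9 had peaks in both lists, whereas Nes and Sox2 had 0. Of 4 markers of mature striatal neurons, only Ppp1r1b had peaks. The fibroblast collagen genes Col1a1 and Col1a2 both had peaks in both lists, and 0 of 2 endothelial markers did. Of the other lists, 1 of 3 microglial markers had a peak in both lists (Aif1), 2 of 3 oligodendrocyte markers with DOP and 1 without, and 1 of 3 astrocyte markers with DOP and 0 without, while Olig2 and Gfap had 0. The part of other cell types in the peaks below was not tested.

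H3K9ac is a mark of active promoters: acetyl groups on the tail of histone H3 lie around the start sites of transcribed genes and are read by bromodomain proteins and parts of the transcription machinery. Polyglutamine diseases share a CAG repeat within a coding exon, and the expanded repeat makes an aggregation-prone protein. The proteins themselves have unrelated functions. TBP (spinocerebellar ataxia type 17) binds the TATA box, ataxin-7 (type 7) is a subunit of the SAGA histone acetyltransferase complex, and ataxin-1 (type 1) and atrophin-1 (dentatorubral-pallidoluysian atrophy) act as transcriptional corepressors. Ataxin-2 (type 2) binds RNA, ataxin-3 (type 3, Machado-Joseph disease) is a deubiquitinase, and Cacna1a (type 6) encodes the pore subunit of the P/Q-type calcium channel. In cells that carry mutant huntingtin the comparison shows how the chromatin mark is placed on the other genes of this disease family, with and without SPL inhibition.

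The runs of glutamine codons in these genes are far shorter in the mouse reference than the repeats of patients, and their length differs among the members. The longest run of each gene was taken, wherever it lay in the coding sequence. Whether it is the counterpart of the human disease repeat was not examined. Tbp had the longest uninterrupted run of CAG and CAA codons, 13 codons (9 CAG and 4 CAA) on chr17:15641355-15641393, longer than the longest run of 99.7% of protein-coding genes. Atxn3 had 6 codons on chr12:103164773-103164790 and Atxn7 had 5 CAG codons on chr14:14845670-14845684. The longest run of Atxn1, Atxn2, Cacna1a and Atn1 was 3 codons in each, which is a length that 91.1% of genes do not reach. The 3 runs of at least 5 codons are shown because their place relative to the peaks differs. They were read from the mm9 reference, coding strand, 5′ to 3′, with the run in capitals. The alleles of the cells themselves were not read. The stretches are coding exon sequence of Tbp (chr17:15641310-15641411, + strand), Atxn7 (chr14:14845625-14845729, + strand) and Atxn3 (chr12:103164728-103164791, - strand).
Tbp: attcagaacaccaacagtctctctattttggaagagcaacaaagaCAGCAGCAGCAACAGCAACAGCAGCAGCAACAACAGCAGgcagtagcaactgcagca
Atxn7: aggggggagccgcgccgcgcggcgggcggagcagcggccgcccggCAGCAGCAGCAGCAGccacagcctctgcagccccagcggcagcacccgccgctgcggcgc
Atxn3: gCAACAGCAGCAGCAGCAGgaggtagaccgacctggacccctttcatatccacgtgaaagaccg

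The Atxn7 run lay whole inside an H3K9ac interval of both lists, 66 bp from a centre of the DOP-treated list and 24 bp from an untreated one. The longest runs of the other members lay outside the peaks. This does not place the counterparts of the human disease repeats, which were not located and may lie elsewhere in the gene. The nearest centre was 3880 bp (DOP-treated) and 3907 bp (untreated) from the Tbp run, and 13573 bp and 13027 bp from the Atxn3 run. Among all 261 protein-coding genes with a run of at least 5 codons (1.17% of genes), the longest run was inside a peak interval in 19 genes (7.28%) with DOP, in 15 (5.75%) without and in 13 (4.98%) in both lists. Atxn7 was therefore 1 of 13 such genes. Over all peaks, 1.92% of DOP-treated and 2.02% of untreated intervals held 3 CAG triplets in a row on either strand. Among the member peaks these were the Atxn7 peak in each list and 1 untreated Atxn1 peak, centred at 46059347.

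All 7 genes had at least 1 peak in both lists. For comparison, 57.7% of protein-coding genes had a DOP-treated peak within the window and 56.9% an untreated one. When only starts of protein-coding transcripts counted, the genome-wide shares were 57.2% and 56.4%, and 6 of the 7 genes had a peak in each list, because Cacna1a then had 0. Within 10 kb Atn1 had the most peaks, 8 DOP-treated and 6 untreated, and Atxn3 the fewest, 1 in each. Counting only peaks nearest to the gene itself, Atxn2 had the most, 6 and 5 against 5 and 4 for Atn1, and it also led with a window of 1 kb (5 and 5 against 4 and 3) and with protein-coding starts only (6 and 5 against 4 and 3). Atxn2 had 6 and 5, Tbp 5 and 5, Cacna1a 4 and 5, Atxn7 3 and 2, and Atxn1 2 and 4. Thus 3 members (Atxn2, Atxn7, Atn1) had more DOP-treated peaks, 2 (Atxn1, Cacna1a) had fewer, and 2 (Atxn3, Tbp) had equal numbers. Some of these differences depended on which peaks were counted. Atxn1 had 2 and 2 when only peaks nearest to it counted, and likewise in the upper 50% of scores. Cacna1a had 4 and 4 with a score of at least 100, and Atxn7 had 2 and 2 in the upper 50%. Atxn2 had 5 and 5 with a window of 1 kb and 4 and 5, fewer with DOP, in the upper 50%. Over all protein-coding genes 19.3% had more DOP-treated peaks and 16.9% had fewer, a share that includes the genes with no peak at all.

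Of the 29 DOP-treated peaks 23 were shared and 6 were in that list only. Of the 28 untreated peaks 24 were shared and 4 were in that list only. Among all peaks within 10 kb of a protein-coding gene's start, 16.2% were DOP-only and 13.3% untreated-only. The list-only peaks of the members had lower scores than their shared peaks: the median percentile was 42.5 against 75.5 with DOP and 32.1 against 72.6 without. The same contrast over all peaks is not given here, so it cannot be called particular to these genes. Most list-only events lay beside an event of the other list. With centres within 500 bp counted as shared, 28 of 29 DOP-treated and 26 of 28 untreated peaks were shared. The share over all peaks was not computed for this wider rule, so these counts cannot be called particular to the members.

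**Figure D1:**
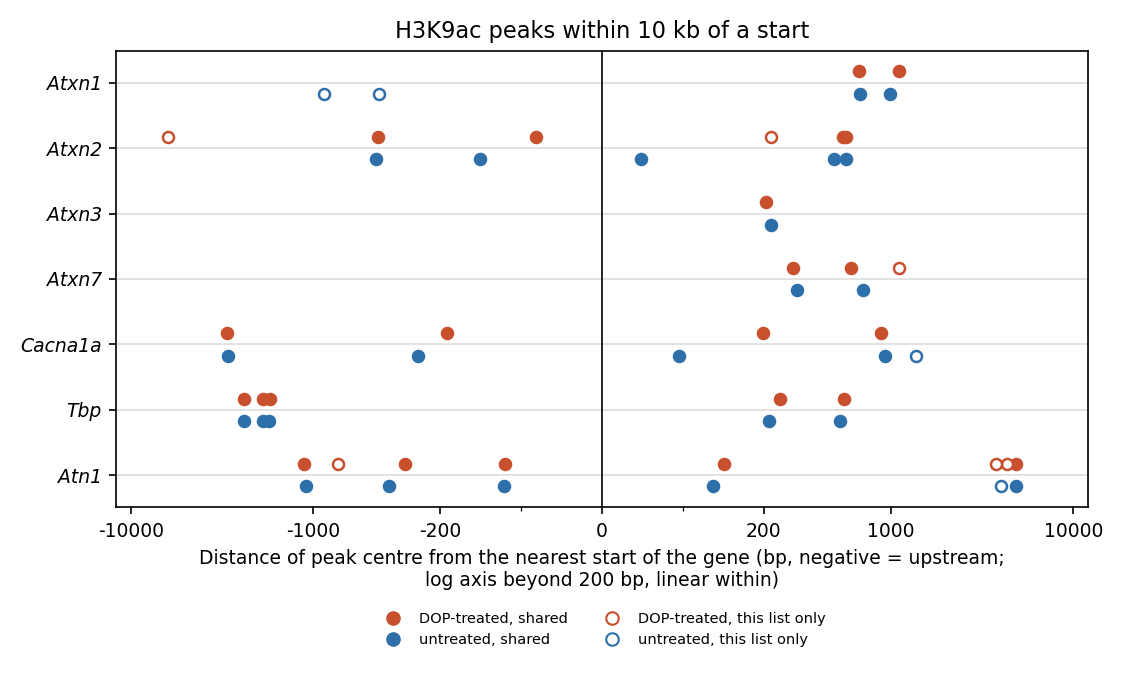
Distance in bp of each peak centre from the nearest annotated start of its gene, for the 29 DOP-treated (orange) and 28 untreated (blue) peaks; the axis is linear within 200 bp of the start and logarithmic beyond. Filled points overlap a peak of the other list and open points do not, and of the DOP-treated peaks 18 lie within 1 kb of a start, of the untreated peaks 20.

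Among the transcription factors, Tbp (ENSMUSG00000014767.10, chr17:15636852-15665343, + strand) had 5 peaks in each list, all of them shared. They formed 2 clusters, and only the downstream cluster was nearest to Tbp itself. Its DOP-treated centres were at 15637170 (246 bp downstream of the nearest start, 5′ UTR, score 939.1, percentile 85.0) and 15637475 (intron, score 215.9, percentile 25.7). The untreated centres were at 15637137 (score 898.1, percentile 84.5) and 15637448 (score 330.9, percentile 41.9). The promoter event thus held nearly the same rank in both lists, and the weaker intronic event ranked lower after DOP.

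The other 3 Tbp peaks lay upstream and were nearer to the start of Psmb1, a proteasome subunit gene. In the DOP-treated list they were 768, 273 and 116 bp from that start, with percentiles 46.6, 83.5 and 48.5. The matched untreated peaks had percentiles 48.5, 87.1 and 59.8. These peaks belong to the window of Tbp but cannot be assigned to either gene. Within Tbp and beyond 10 kb of its starts, 2 more peaks per list lay in the 3′ UTR and were nearest to Pdcd2, at percentiles 84.8 and 47.8 with DOP and 88.6 and 44.5 without.

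Atxn7 (ENSMUSG00000021738.4, chr14:14845005-14939810, + strand, 1 annotated start) had all its peaks just downstream of that start. The strongest event was intronic and ranked lower in the DOP-treated list, at 14845295 with score 1062.4 and percentile 89.0, than in the untreated list, at 14845310 with score 1359.5 and percentile 95. The event in the coding exon that carries the CAG run was at 14845604 in the DOP-treated list (score 682.6, percentile 72.4). In the untreated list it was at 14845708 (score 624.5, percentile 70.1), so that its centre differed by 104 bp while its rank differed by 2.24 points. Another coding-exon event at 14846112 (score 269, percentile 32.7) was in the DOP-treated list only, 404 bp from the nearest untreated centre.

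Among the corepressors, Atxn1 (ENSMUSG00000046876.8, chr13:45650262-46060345, - strand) had a pair of intronic events in both lists, downstream of its 2 starts. In the DOP-treated list they were centred at 46059659 (667 bp downstream, score 1424.3, percentile 95.8) and at 46059219 (1107 bp, score 825.7, percentile 80.2). The untreated centres were at 46059652 (score 1022.6, percentile 88.5) and at 46059347 (score 805.4, percentile 80.4). The event nearer to the start ranked 7.30 points higher with DOP, and the other differed by 0.25 points in the opposite direction. The untreated list had 2 further events upstream of the gene, at 46060776 (score 294.6, percentile 37.5) and 46061218 (score 245.4, percentile 31.2). Both were nearer to the start of 5033430I15Rik, at 154 and 596 bp, and were 1117 and 1559 bp from the nearest DOP-treated centre. Of the 10 list-only peaks of the members, only these 2 and 1 distal Atxn2 peak had no event of the other list within 500 bp.

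The sequence of the strongest Atxn1 peak is shown because it had the highest rank of any Atxn1 event and lies in a CpG-rich stretch. It is the DOP-treated interval chr13:46059560-46059759 (mm9, given on the - strand, 5′ to 3′, with each CG in capitals). The interval has 26 CG dinucleotides and a GC content of 78.5%.
Atxn1 peak: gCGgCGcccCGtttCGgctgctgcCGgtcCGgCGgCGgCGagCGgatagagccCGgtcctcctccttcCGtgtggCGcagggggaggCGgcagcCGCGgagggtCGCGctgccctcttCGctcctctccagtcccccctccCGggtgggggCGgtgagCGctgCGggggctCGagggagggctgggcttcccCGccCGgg

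Atn1 (ENSMUSG00000004263.9, chr6:124689207-124706542, - strand) had the largest number of peaks within 10 kb, spread over 3 clusters across and around a gene of 17336 bp. The cluster at its 5′ end held the strongest events. The event 151 bp downstream of the start, in the 5′ UTR, was at 124706391 with DOP (score 1259.2, percentile 93.4) and at 124706405 without (score 1425.9, percentile 95.7). The event 120 bp upstream was at 124706662 (score 1200.8, percentile 92.3) and at 124706663 (score 1034.1, percentile 88.8). These centres differed by 1 bp, the closest match among the members. Another shared event, 1121 bp upstream in the DOP-treated list, had percentile 62.7 with DOP and 70.4 without. Between the last 2 events the DOP-treated list had an event of its own at 124707274 (score 743.8, percentile 75.9), 353 bp from the nearest untreated centre and the highest-ranked list-only peak of all members.

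Inside Atn1 an intronic event 312 bp upstream of the start of a processed transcript had percentile 47.0 with DOP (124695955, score 391) and 29.3 without (124696026, score 231). The cluster at the 3′ end was nearest to Grcc10, a neighbouring gene. Its shared event, 79 bp from the Grcc10 start in the DOP-treated list, had percentile 92.7 with DOP and 88.3 without. The DOP-treated list had 2 more events there (124691323, percentile 52.2, and 124691874, percentile 28.1) and the untreated list 1 more (124691648, percentile 33.0). None of these 3 overlapped a peak of the other list, whose nearest centres were 325, 226 and 226 bp away. Leaving out the peaks nearest to another gene, Atn1 had 5 DOP-treated and 4 untreated peaks, which is fewer than the 6 and 5 of Atxn2.

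The peak upstream of the Atn1 start is shown as the richest in CG of the sequences printed here. It is the DOP-treated interval chr6:124706563-124706762 (mm9, - strand, 5′ to 3′, each CG in capitals), with 36 CG dinucleotides and a GC content of 82.5%.
Atn1 upstream peak: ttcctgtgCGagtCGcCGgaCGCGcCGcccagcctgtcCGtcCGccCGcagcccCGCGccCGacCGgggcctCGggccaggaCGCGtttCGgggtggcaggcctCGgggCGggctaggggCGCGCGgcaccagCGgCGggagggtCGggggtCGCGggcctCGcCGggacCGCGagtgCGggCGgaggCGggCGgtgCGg

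Atxn2 (ENSMUSG00000042605.8, chr5:122161346-122266502, + strand, 17 annotated starts), the RNA-binding member, had the highest-ranked peak of the 7 genes. It lay in a coding exon, 544 bp downstream of a protein-coding start in the DOP-treated list, at 122162162 (score 1920.5, percentile 98.9, rank 393) and at 122162181 in the untreated list (score 2106.1, percentile 99.1, rank 291). The next event, intronic, ranked high in both lists as well, at percentile 95.2 with DOP (122162540) and 91.7 without (122162528). At the most upstream start the lists differed in the number of events. The DOP-treated list had 1 event at 122161264 (score 962, percentile 85.8). The untreated list had 2, on either side of it, at 122161195 (score 471.8, percentile 57.4) and 122161394 (score 698.2, percentile 74.8), so the higher rank with DOP goes with 1 event in place of 2.

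Further downstream in the Atxn2 intron the pattern was the reverse. The DOP-treated list had 2 events, at 122163197 (score 464.9, percentile 54.8, DOP-only, 267 bp from the nearest untreated centre) and 122163542 (score 391.1, percentile 47.0). The untreated list had 1, at 122163464 (score 595, percentile 68.1). The only distal event was DOP-only, at 122155125, 6221 bp upstream of the first start and 6070 bp from the nearest untreated centre. With a score of 109 (percentile 11.3) it was the lowest-ranked DOP-treated peak of all members.

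Atxn3 (ENSMUSG00000021189.5, chr12:103157111-103196456, - strand), the deubiquitinase gene, had a single intronic event in each list. It was at 103196153 with DOP (205 bp downstream of the nearest start, score 445, percentile 52.8) and at 103196139 without (score 400, percentile 50). This is the middle of both lists: 21.9% of genes with a DOP-treated peak and 20.9% of those with an untreated peak had a lower-ranked strongest peak.

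Cacna1a (ENSMUSG00000034656.9, chr8:86912339-87164145, + strand, 251807 bp), the calcium channel gene, stood apart in where its peaks lay. Its 3 protein-coding starts are between 86939263 and 86939490. The nearest peak to any of them was 86033 bp away in the DOP-treated list (percentile 17.2) and 86155 bp away in the untreated list (percentile 18.7). The peaks in its window all lay at the 3′ end of the gene, around the start of a short processed transcript at 87162890, which is 223400 bp from the nearest coding start.

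The DOP-treated centres at the 3′ end of Cacna1a were at 87159910 (intron, percentile 45), 87162699 (coding exon, percentile 75.5), 87163089 (percentile 72.6) and 87163772 (3′ UTR, percentile 25.4). The untreated centres were at 87159965 (percentile 36.6), 87162625 (percentile 54.5), 87162985 (percentile 79.3) and 87163820 (percentile 24.3), with 1 more past the gene's end at 87164261 (percentile 7.78). The 4 events thus recurred in both lists, with the strongest event one position further downstream in the untreated list. The untreated-only event had a score of 75.4, the lowest of all member peaks, and was 489 bp from the nearest DOP-treated centre.

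Of these Cacna1a intervals, 1 of the exonic and 1 of the intronic peaks are shown, because they differ in composition within 1 gene. Both are DOP-treated intervals (mm9, + strand, 5′ to 3′, each CG in capitals). The coding-exon peak, chr8:87162600-87162799, has 20 CG dinucleotides and a GC content of 71%. The intronic peak, chr8:87159811-87160010, has 0 CG dinucleotides and a GC content of 57%.
Cacna1a exonic peak: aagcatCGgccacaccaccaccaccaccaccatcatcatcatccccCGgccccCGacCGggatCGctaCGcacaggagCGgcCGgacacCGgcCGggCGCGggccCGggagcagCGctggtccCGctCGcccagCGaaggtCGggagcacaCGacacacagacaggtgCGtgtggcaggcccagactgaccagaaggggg
Cacna1a intronic peak: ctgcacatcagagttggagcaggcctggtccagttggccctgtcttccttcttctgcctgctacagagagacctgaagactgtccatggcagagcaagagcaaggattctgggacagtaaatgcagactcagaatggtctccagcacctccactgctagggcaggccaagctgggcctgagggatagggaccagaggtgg

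The strongest peak lay within 1 kb of a start of the gene in all 7 members with DOP and in 6 without. The exception was Tbp, whose strongest untreated peak was 1879 bp upstream and nearest to Psmb1, and at Cacna1a the start in question is not a protein-coding one. Genome-wide, the highest-scoring peak was within 1 kb of a start in 79.8% of genes with a DOP-treated peak and in 80.4% of those with an untreated peak. By annotation, 14 of the 29 DOP-treated member peaks were centred in introns, 4 in coding exons, 2 in a 5′ UTR, 1 in a 3′ UTR and 8 outside the gene. The 28 untreated peaks divided in much the same way, with 12 in introns, 3 in coding exons, 2 in a 5′ UTR, 1 in a 3′ UTR, 1 in a non-coding exon and 9 outside.

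The median score percentile of the member peaks was 72.4 with DOP (from 11.3 to 98.9) and 69.1 without (from 7.78 to 99.1). The median over all peaks near protein-coding starts was 55.2 and 55.1. The distance from these values depended on the window. With 20 kb the member medians were 58.8 with DOP and 59.8 without, and the median over all peaks was not computed for that window. By its strongest peak, Atxn2 ranked above 96.8% of genes with a DOP-treated peak and 97.6% of those with an untreated peak. Atxn1 ranked above 87.8% and 70.2%, Atn1 above 81.2% and 87.7%, Atxn7 above 70.3% and 85.7%, Tbp above 62.0% and 67.3%, and Cacna1a above 45.9% and 52.8%. The order of the genes was therefore not the same in the 2 lists, with Atxn1 behind Atxn2 alone with DOP and behind Atxn2, Atn1 and Atxn7 without, and no replicate spread is known against which to set such shifts.

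**Figure D2:**
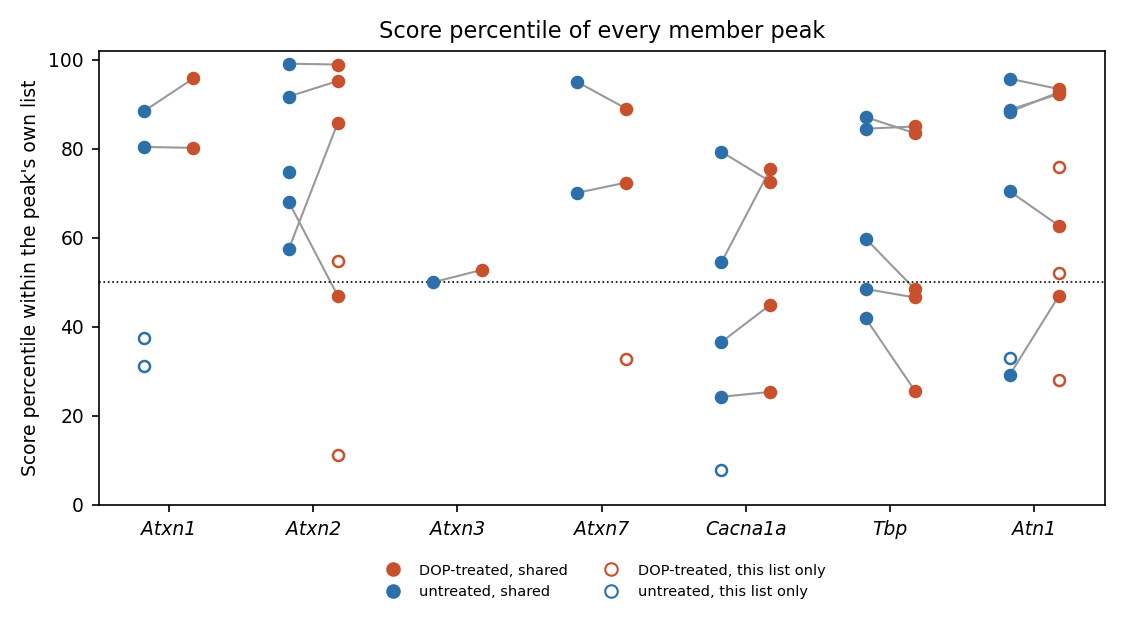
Score percentile of every member peak within its own list, from 0 to 100, with untreated peaks in blue on the left and DOP-treated peaks in orange on the right of each gene; lines join peaks matched between the lists. Open points overlap no peak of the other list, and among DOP-treated peaks 19 lie above the dotted line at percentile 50, among untreated peaks 18.

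Matched peaks gave a closer comparison of the lists. Each peak was paired with the overlapping peak of the other list where each was the other's nearest, which gave 25377 pairs in all and 23 near the members. The percentile was higher with DOP in 12 member pairs and lower in 11, against 14966 and 10411 of all pairs. The median difference (DOP-treated minus untreated) was 0.50 points for the members and 1.34 points for all pairs. From the 5th to the 95th percentile, the differences of all pairs ran from -17.21 to 21.09 points.

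Both member pairs outside these limits belonged to Atxn2: the event at its most upstream start (28.37 points) and the intronic event at 122163542 (-21.09 points), where the number of events differed between the lists. The next were the coding-exon event of Cacna1a (20.96 points), the internal event of Atn1 (17.66 points) and the intronic event of Tbp (-16.24 points). The member pairs were also close in position, with a median distance between centres of 27 bp (from 1 to 128), against 29 bp for all pairs.

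**Figure D3:**
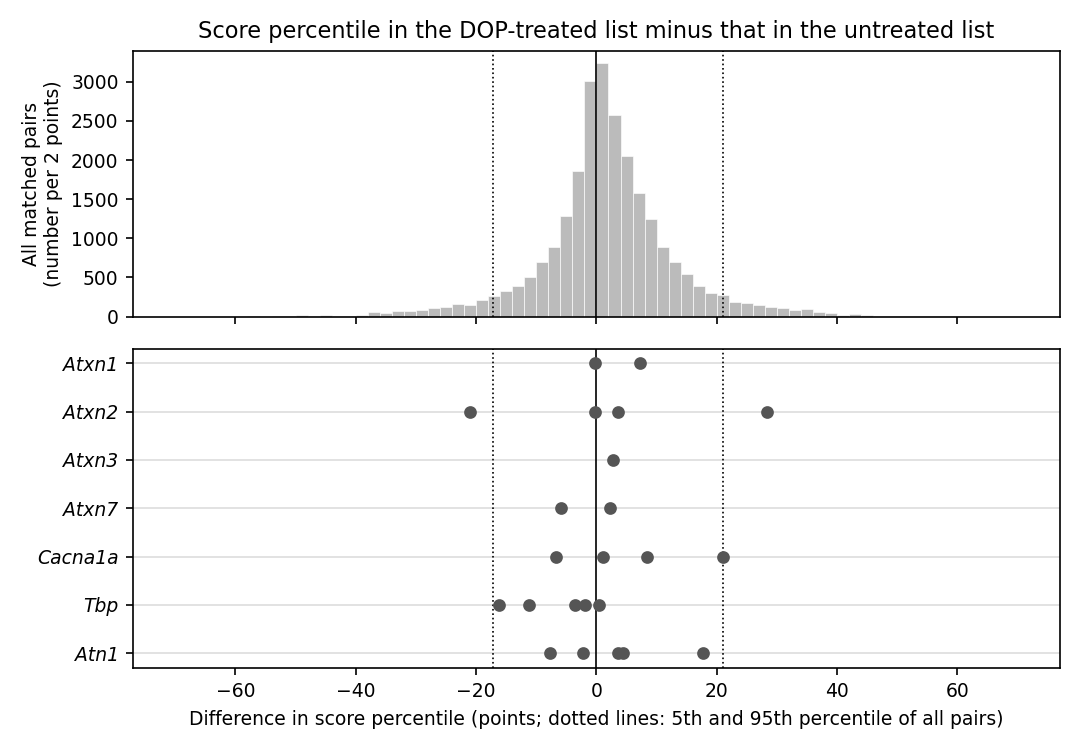
Difference in score percentile (DOP-treated minus untreated, in points) of matched peaks, as a histogram of all 25377 pairs above and as 1 point per pair for each member below. Dotted lines mark the 5th and 95th percentile of all pairs, and only 2 Atxn2 pairs lie outside them.

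Because the number of events differed between the lists at some genes, the scores were also summed over the peaks of each gene. The summed score of Atxn2 was 5226 with DOP and 5026 without, a ratio of 1.04. Atn1 had the highest ratio of the members, 1.31 (6033 against 4593), above the ratio of 85.8% of genes with peaks in both lists. Tbp had the lowest, 0.924 (2851.9 against 3087), with 16% of genes lower. The ratio was 1.13 for Cacna1a, 1.11 for Atxn3, 1.02 for Atxn7 and 0.95 for Atxn1. The value of Atxn1 turned when only the peaks nearest to the gene were summed, 2250 against 1828 or a ratio of 1.23, because both untreated-only peaks were then left out, and its matched pairs had score ratios of 1.39 and 1.03. In the same way Atn1 had a ratio of 1.25 and Tbp 0.94, and the other members did not change. Over 12375 genes with peaks in both lists the median ratio was 1.07 and the range from the 5th to the 95th percentile was 0.81 to 1.55, which held all 7 members. How the score scales with depth is not known, and these ratios compare lists and not amounts of H3K9ac.

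The members differed also in their gene bodies. Atxn1, the longest of them (410084 bp), had 5 DOP-treated peaks and 0 untreated peaks inside the gene and beyond 10 kb of its starts. All 5 were intronic and weak, with scores of 155, 44, 33, 48.5 and 66 (percentiles 17.4, 2.85, 1.39, 3.46 and 5.59). The nearest untreated peak was between 41080 and 176897 bp away. This comparison of gene bodies was chosen after seeing the data, so the shares given here are a description and not a test. An excess of DOP-treated over untreated peaks at least as large was found in 8 protein-coding genes of any length (0.0357%), Atxn1 included. Among the 2401 genes of at least 100 kb there were 6 (0.25%), and the reverse excess of untreated peaks was seen in 4 (0.167%). Of the 5 peaks 1 had a score of at least 100, a minimum chosen after seeing the data, and none was in the upper 50% of its list. Cacna1a had 2 DOP-treated peaks and 1 untreated peak in the gene body beyond the window, Tbp 2 and 2, and the other members had 0.

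**Figure D4:**
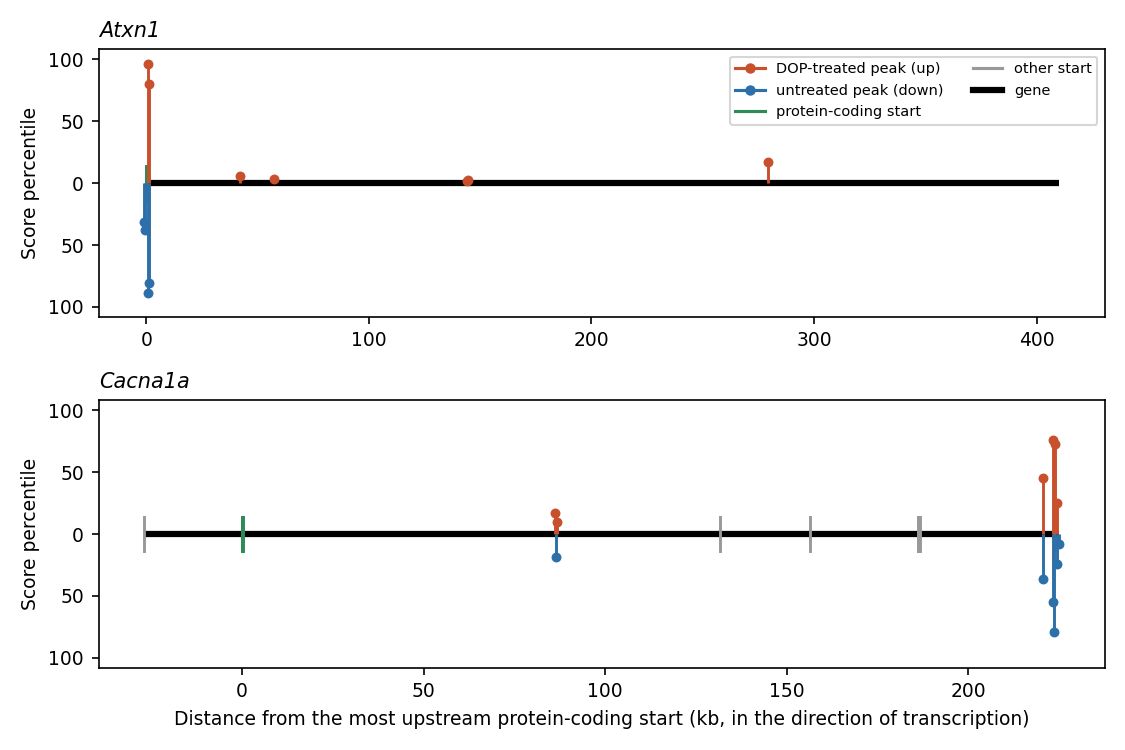
Score percentile of each peak along Atxn1 and Cacna1a, by distance in kb from the most upstream protein-coding start in the direction of transcription, with DOP-treated peaks drawn upward and untreated peaks downward; ticks mark annotated starts. The strong Atxn1 peaks sit at its start, with 5 weak DOP-treated peaks further in, and the strong Cacna1a peaks sit at the far end of the gene.

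The base composition of the member peaks varied widely, as did that of all peaks within 10 kb of a start. Their GC content was between 44.5% and 82.5% with DOP and between 46.5% and 83% without, with a median of 64.5% in both lists. For all peaks near starts the median was 60.5% and 61%, and the range from the 5th to the 95th percentile was 43% to 78% and 42.5% to 78%. The ratio of observed to expected CpG, which is near 1 in CpG islands and low in most of the genome, had a median of 0.661 with DOP and 0.76 without for the members, and of 0.672 and 0.683 for all peaks near starts. The Cacna1a intronic peak shown above had a ratio of 0, the lowest among the DOP-treated member peaks.

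Paralogs and partner proteins of the members were described in the same way. Every peak within 10 kb of a start was counted for them, and peaks nearer to another gene were not separated. Of 13 paralogs, 10 had a peak in each list, beside 57.7% of all protein-coding genes with DOP and 56.9% without. The 3 without a peak were the channel genes Cacna1b and Cacna1e and the germline TBP paralog Tbpl2. More DOP-treated than untreated peaks were seen in 7 paralogs, fewer in 0 and equal numbers in 6 (the 3 genes without peaks included). Over all genes, 19.3% had more and 16.9% fewer. Those shares include the genes with no peak in either list, which cannot differ, so the shares among genes with peaks are higher. The numbers of the paralogs were close in each case: Rere, the paralog of Atn1, had 9 and 7, Atxn7l3 had 7 and 5, and Atxn1l had 3 and 2. Atxn1l and Josd1, a paralog of Atxn3, had strongest peaks at percentile 99.8 and 99.7 in both lists, above those of the members themselves.

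All 28 partner genes had a peak in both lists, beside 57.7% of all protein-coding genes with a DOP-treated peak and 56.9% with an untreated one. More DOP-treated peaks were seen in 8 partners, fewer in 9 and equal numbers in 11. Over all genes, those without a peak included, 19.3% had more and 16.9% fewer. The largest differences were at Baiap2, a partner of atrophin-1 (7 DOP-treated and 3 untreated peaks), at the channel subunit gene Cacna2d2 (4 and 1) and at the TFIID and SAGA subunit gene Taf10 (7 and 10). Cic, the repressor that binds ataxin-1, had 13 and 12 peaks in its window. As for the other partners, some of these may be nearer to another gene. The SAGA deubiquitinase Usp22, a partner of ataxin-7, had 2 and 2, with its strongest peak at percentile 94.9 with DOP and 93.5 without. Vcp, which binds ataxin-3, had 5 and 4, and Pabpc1, the poly(A)-binding partner of ataxin-2, had 4 and 4. Taf1, the largest TFIID subunit and partner of TBP, had 2 and 3. The strongest peaks of the 6 channel subunit genes spread widely. Those of Cacnb1 (percentile 96.9 with DOP and 95.9 without), Cacna2d2 (82.1 and 91.3) and Cacnb3 (79.5 and 89.1) ranked high, that of Cacna2d1 was near the middle (53.3 and 56.5), and those of Cacnb4 (36.8 and 23.1) and Cacnb2 (33.4 and 32.1) ranked low. The median number of peaks per gene was 3 in each list for paralogs and partners alike. Over all protein-coding genes, those without a peak included, it was 1 in each list. A count of 3 was common, with 2979 genes having 3 DOP-treated peaks and 2827 having 3 untreated ones.

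Htt, the gene mutated in these cells, gives the setting. It had 2 DOP-treated and 3 untreated peaks, with the strongest at percentiles 61.8 and 47.1 and a ratio of summed scores of 0.939. This ratio includes 1 untreated-only peak (score 238.5), whereas the matched Htt pairs had score ratios of 1.45 and 1.25.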

How the data were processed

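H3K9ac ChIP-seq libraries of DOP-treated (2 samples) and untreated (2 samples) STHdh Q111 cells were deposited as 1 peak list per condition, and the IgG sample has no list of its own here. The paper's methods name Bowtie 2 and GPS with the mm9 genome, whereas the submitters' processing notes name BWA 0.7.10. How samples and IgG entered the call, and the threshold, are not given in the sources used here. Both lists are longer than the peak numbers in the study's methods. The score deposited by the authors is unitless, its depth is unknown, and only ranks within a list, score ratios and a minimum of 100 were computed from it.

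Peak centres were assigned to genes within 10 kb of any GENCODE vM1 transcript start (mm9), irrespective of the nearest gene. A minimum overlap of 1 bp defined shared peaks, and the longest in-frame run of CAG or CAA codons was taken from each gene's coding transcripts. All 7 members are named, with other genes where they lie nearer to a member's peak, belong to the lists, or are Htt. A further named gene is not reported here. The members and lists were chosen with earlier results of these data known. No test was run. The functions recovered 8 of 8 reference values, which came from planted peaks and from bedtools counts of shared peaks in the deposited lists. Python 3.11.15, pandas 2.3.3, numpy 2.4.6, pysam 0.24.0, matplotlib 3.10.9, samtools 1.23.1 and bedtools 2.31.1 were used.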

Additional observations from a re-analysis of the deposited data

How the results depend on the processing

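No paired analysis was possible because each condition has 1 pooled peak list and no replicate columns. For the same reason no replicate could be left out, no value has an error, and the depth behind a score is unknown. The number of DOP-treated member peaks fell from 29 to 18 with a window of 1 kb and to 19 in the upper 50% of scores. With events chained within 1 kb it was 12 in each list, of which 11 were shared in each. For chained events no share over all peaks was computed. The other 60 of 66 alternatives of the summary results stayed within 1.5 times. This limit is wide for a median percentile. With a window of 20 kb the DOP-treated median went from 72.4 to 58.8 and the untreated one from 69.1 to 59.8, and both passed. All 7 members had a peak in both lists under every alternative run except protein-coding starts only (6, without Cacna1a). Of 107 alternatives for single members, 83 stayed within 1.5 times of the main value. Peak counts were judged within each list, so a changed difference between the lists could still pass. At Atxn2 the counts of 6 and 5 became 4 and 5 in the upper 50%, and both passed. The summed score ratio of Atxn1, 0.95, was 1.23 with only peaks nearest to the gene, an alternative chosen after seeing the data. The excess of 5 DOP-treated peaks in the Atxn1 gene body, an alternative chosen after seeing the data, was 1 with a score of at least 100 and 0 in the upper 50% of scores.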
